A study of Mus musculus with 2 samples.

Results

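Cycling monocytes and macrophages were described in droplet single-cell RNA sequencing of B16 melanoma, a mouse tumor line grown in wild-type mice. Live cells carrying CD45, the surface protein of white blood cells, were sorted before sequencing. A barcode was selected on its unique molecular identifier (UMI) counts. It needed at least 200 detected genes and under 10% mitochondrial UMIs. It also needed at least 2 UMIs summed over the cycle genes Mki67, Top2a, Birc5, Ccnb2 and Tpx2, and at least 2 UMIs of Lyz2, the lysozyme gene of monocytes and macrophages. Any UMI of the T cell genes Cd3d, Cd3e, Cd3g, Trac or Trbc2, of the dendritic cell genes Xcr1 or Clec9a, or of Cd209a excluded it. This gave 240 members among 10801 kept barcodes and 11688 deposited ones. The shSdc1 library held 129 members and the shRFP library 111. The shSdc1 tumors had grown from B16 cells carrying a short hairpin against Sdc1, which encodes the proteoglycan syndecan-1, and the shRFP tumors from B16 cells carrying a control hairpin. All mice had first been vaccinated with irradiated, GM-CSF-secreting B16 cells. They were injected with tumor cells 12 days later, and the tumors were taken after a further 16 days. Tissue was digested with enzymes, and 6 tumors per group were pooled into 1 library. There are therefore no replicates, no difference was tested, and the 95% intervals given here cover counting error only. One label names the shSdc1 sample a knockout, but by its title and protocol the tumor cells carried a hairpin and the mice were wild type.

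Tumor macrophages arise in part from blood monocytes, which lose Ly6c2 and Plac8 and gain complement C1q, Apoe and lysosomal genes as they mature in tissue. Most differentiated cells stop dividing, but macrophages can re-enter the cell cycle in tissue, driven by colony-stimulating factors and D-type cyclins. Inhibitors of cyclin-dependent kinases, such as Cdkn1a, hold cells out of cycle.

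The members carried a monocyte and macrophage profile, and few transcripts of other lineages. All 14 genes of a monocyte and macrophage list were detected in both libraries, and at least 3 UMIs of the list were present in 125 of 129 shSdc1 members and 110 of 111 shRFP members. Summed, the list stood at 0.701 times (0.670 to 0.734) its level in barcodes of the same Lyz2 and lineage gates without a cycle UMI in shSdc1. In shRFP it stood at 0.704 times (0.670 to 0.739), so the list was lower in members in both libraries. Fcer1g, an Fc receptor chain, was present in 92.2% and 92.8% of members, and Cd68, a lysosomal glycoprotein, in 68.2% and 69.4%. Mertk, an efferocytosis receptor of mature macrophages, had only 2 UMIs in members of each library. A list of 12 further T cell genes had 2 UMIs in shSdc1 members and 3 in shRFP members, with 11 and 10 of its genes at 0. The 8 NK genes had 17 and 13 UMIs, of which 1 barcode held 16 in shSdc1 and 1 held 8 in shRFP. The 8 B cell genes had 30 and 24 UMIs, chiefly Ighm, and the 8 dendritic cell genes had 70 and 50, chiefly Naaa, with Zbtb46, Ccr7, Fscn1 and Cacnb3 at 0 in both. Plasmacytoid dendritic cell genes had 5 UMIs and 1 UMI, neutrophil genes 6 and 1, and stromal genes 2 each. Mast cell and red cell genes had no UMI, and the 6 melanoma genes had 2 UMIs and 1 UMI. Of the members, 14 in shSdc1 and 7 in shRFP were among the barcodes with the highest doublet scores, and none carried 1 of the 20 barcode sequences found in both libraries. Members were deeper than other barcodes, with a median of 1518 UMIs in shSdc1 and 1639 in shRFP, against 601 and 662 over all kept barcodes. As a measure of stray RNA, 2 or more Lyz2 UMIs were found in 4.34% of T cell barcodes of shSdc1 and 5.97% of shRFP, at median depths of 551 and 476 UMIs. Among T cell barcodes with at least 2 cycle UMIs, the share was 7.02% of 285 in shSdc1 and 3.19% of 94 in shRFP. At least 2 cycle UMIs were found in 1.85% of barcodes with migratory dendritic cell genes in each library, at medians of 766 and 706 UMIs. Sdc1 itself had 2 UMIs in members of each library and 86 UMIs in the whole shSdc1 library against 106 in shRFP, which does not check the hairpin because the sort left the tumor cells out.

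The cycle genes that chose the members are given as a description. Birc5, the mitotic protein survivin, was found in 65.1% of shSdc1 members and 64.9% of shRFP members. Mki67, the proliferation marker Ki-67, was found in 52.7% and 43.2%, and Top2a, the topoisomerase that untangles sister chromatids, in 49.6% and 45.0%. Ccnb2, a mitotic cyclin, was found in 30.2% and 36.9%, and Tpx2, a spindle assembly factor, in 32.6% and 30.6%. No single gene carried the selection of all members, and 45 shSdc1 members and 39 shRFP members had UMIs of at least 3 of the 5 genes. In 24 shSdc1 members (18.6%) and 27 shRFP members (24.3%), however, the cycle UMIs came from 1 gene only. Dropping 1 gene at a time would have lost at most 38 and 30 members, both through Birc5. Just inside the threshold lay 60 shSdc1 members and 44 shRFP members with exactly 2 cycle UMIs, in which a separate list of 42 mitosis genes came to 3844 and 3673 CPM, its UMIs scaled to the same total of UMIs in every group. Just outside lay 109 and 127 gated barcodes with 1 cycle UMI, at 2322 and 2347 CPM. Of all barcodes with at least 2 cycle UMIs, 337 in shSdc1 and 131 in shRFP had no Lyz2 UMI, and 41 and 30 had 1. The T cell genes removed 24 and 4 of those with 2 or more Lyz2 UMIs, Xcr1 or Clec9a 1 each, and Cd209a 3 and 7.

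Members made up a similar share of all kept barcodes in both libraries, and a larger share of the Lyz2-positive compartment in shSdc1. They were 2.31% of kept barcodes in shSdc1 (95% interval 1.94 to 2.74%) and 2.12% in shRFP (1.75 to 2.55%), a ratio of 1.09 (0.838 to 1.42). Barcodes passing the Lyz2 and lineage gates whatever their cycle genes numbered 1967 in shSdc1 and 2492 in shRFP. Of these, 6.56% were members in shSdc1 (5.50 to 7.74%) and 4.45% in shRFP (3.68 to 5.34%), a ratio of 1.47 (1.13 to 1.92). With every barcode thinned to 1000 UMIs and shallower ones left out, the shares were 8.85% of 667 gated barcodes in shSdc1 and 7.32% of 847 in shRFP, a ratio of 1.21 (0.832 to 1.75). At matched depth the interval of the ratio thus held 1. Among T cell barcodes with fewer than 2 Lyz2 UMIs, 20.7% of 1279 in shSdc1 and 13.1% of 693 in shRFP had at least 2 cycle UMIs. Members were 24.2% of all cycle-positive barcodes in shSdc1 and 39.1% in shRFP.

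To ask which macrophage state the dividing cells carried, each gated barcode was assigned by the state list with the largest quotient, the list's share of the barcode's UMIs over its mean share in non-cycling barcodes of the libraries weighted alike. Non-cycling barcodes were the gated ones with no cycle UMI, 1729 in shSdc1 and 2254 in shRFP. A list needed at least 5 UMIs to count. The 7 lists stand for complement C1q macrophages, Gpnmb and Arg1 lipid-handling macrophages, hypoxic, inflammatory, monocyte and interferon states, and a Retnla and Mgl2 state. The list with the largest quotient is a range and not a cell type, and in 21 of 129 shSdc1 members and 19 of 111 shRFP members the second list reached at least 0.8 times the first.

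The C1q state was the commonest state of dividing cells in both libraries. It held 83 of 129 shSdc1 members, or 64.3% (55.4 to 72.6%), and 56 of 111 shRFP members, or 50.5% (40.8 to 60.1%). Among non-cycling barcodes it held 51.4% in shSdc1 and 19.3% in shRFP. Its share thus differed more between the libraries in non-cycling barcodes than in members, a contrast that was not tested. At least 5 UMIs of the 12 C1q genes, whatever the state, were present in 88.4% of shSdc1 members and 85.6% of shRFP members, against 79.8% and 42.8% of non-cycling barcodes. The median was 32 UMIs per member in shSdc1 and 28 in shRFP, against 20 and 3 per non-cycling barcode, which were shallower. In T cell barcodes, a measure of free RNA, at least 5 UMIs of the list were found in 1.33% in shSdc1 and 0.577% in shRFP, at medians of 536 and 454 UMIs.

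**Figure D1:**
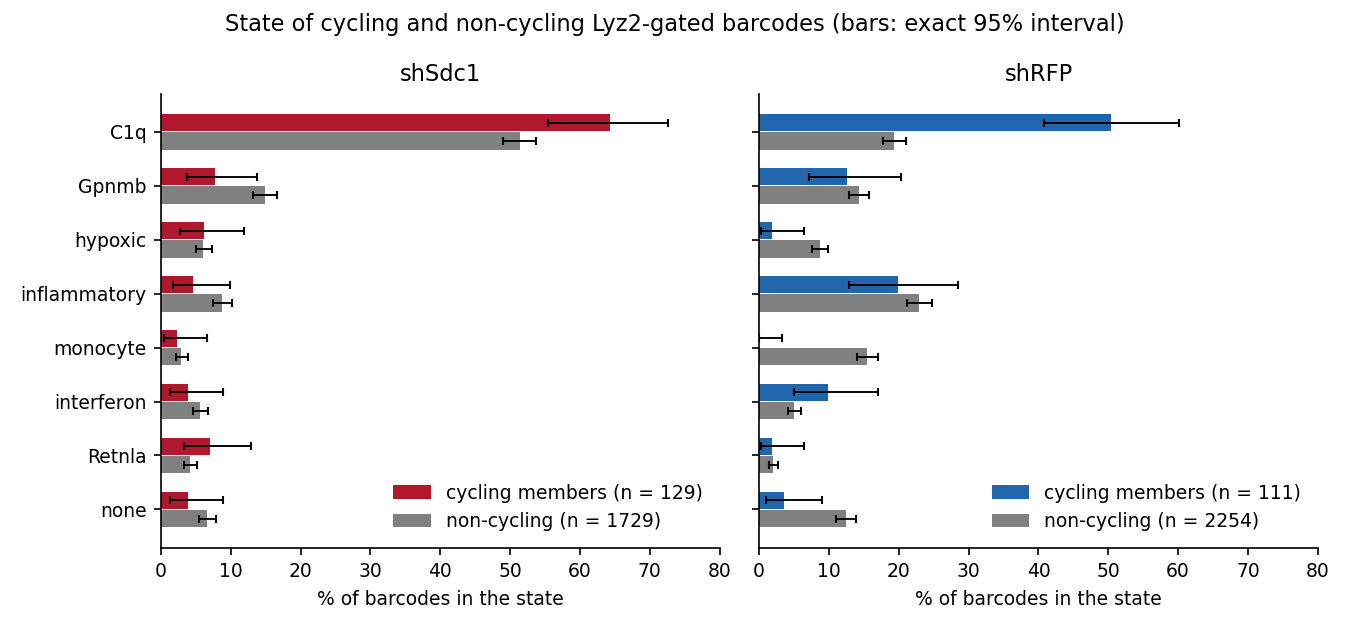
Share of barcodes in each state, as percent, for cycling members (colored) and non-cycling Lyz2-gated barcodes (gray) of the shSdc1 and shRFP libraries, with exact 95% intervals. The C1q state holds 64.3% and 50.5% of members, and no shRFP member is in the monocyte state.

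In shRFP no dividing cell was in the monocyte state, and in shSdc1 its share among members was close to that among non-cycling barcodes. Its list holds genes of fresh blood monocytes, among them Ly6c2, Chil3, Plac8 and Hp. It was the state of 3 of 129 shSdc1 members (2.33%) and 0 of 111 shRFP members, which allows a share of up to 2.70%. Non-cycling barcodes had it in 2.89% in shSdc1 and 15.4% in shRFP. In shSdc1, 3 of 56 gated barcodes in this state were members (5.36%), close to the 6.56% over all its gated barcodes and above the Gpnmb (3.53%) and inflammatory (3.70%) states. In shRFP 0 of 350 were members, which allows up to 0.857%, against 4.45% over all its gated barcodes. Monocyte-state barcodes were shallow, with a median of 619 UMIs in shRFP, against 959 in its C1q state. Thinned to 1000 UMIs, 0 of 35 monocyte-state barcodes were members in shRFP (exact interval 0 to 10.0%), which includes the 7.32% over all gated barcodes, so no difference was shown at matched depth.

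The other states each held a minority. The inflammatory state, named for Il1b, Cxcl2, Tnf and Ptgs2, held 6 shSdc1 members (4.65%) and 22 shRFP members (19.8%), against 8.68% and 22.9% of non-cycling barcodes. The Gpnmb state held 10 and 14 members (7.75% and 12.6%), against 14.9% and 14.3% of non-cycling barcodes. The hypoxic state, with Vegfa and other targets of low oxygen, held 8 and 2 members. Members in these 3 states made up a share at or below that of non-cycling barcodes in both libraries, except for the hypoxic state in shSdc1 (6.20% against 6.02%). The interferon state held 5 shSdc1 members and 11 shRFP members, and the Retnla state 9 and 2. No list reached 5 UMIs in 5 and 4 members.

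Read the other way, C1q-state barcodes were more often in cycle than the remaining gated barcodes of their library pooled, though not than every other state. In shSdc1 8.05% of 1031 C1q-state barcodes were members, against 4.91% of the 936 others, a ratio of 1.64 (1.13 to 2.40). In shRFP 10.2% of 547 were members, against 2.83% of the 1945 others, a ratio of 3.62 (2.45 to 5.35). Depth enters here, since a deeper barcode reaches 2 cycle UMIs more readily. Thinned to 1000 UMIs, the shares were 11.5% against 6.63% in shSdc1, a ratio of 1.73 (1.0007 to 3.04), and 12.2% against 5.23% in shRFP, a ratio of 2.33 (1.37 to 3.97). The order was thus kept at matched depth in both libraries, and the shRFP ratio was smaller than with the counts as deposited. The C1q-state shares of the libraries, 8.05% and 10.2%, had overlapping intervals (6.46 to 9.88% and 7.83 to 13.1%). Retnla-state barcodes in shSdc1 were in cycle in 10.6% of 85 (4.96 to 19.2%), and thinned in 14.0% of 43 (5.30 to 27.9%). The C1q state there had 8.05% and 11.5%. Interferon-state barcodes in shRFP were in cycle in 8.53% of 129 (4.33 to 14.7%), and thinned in 12.7% of 55 (5.27 to 24.5%). The C1q state there had 10.2% and 12.2%. The intervals of both states held the C1q values, so their order against the C1q state was not resolved. Hypoxic barcodes were the least often in cycle in shRFP after monocytes, with 2 of 207 (0.966%), against 8 of 115 in shSdc1 (6.96%).

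**Figure D2:**
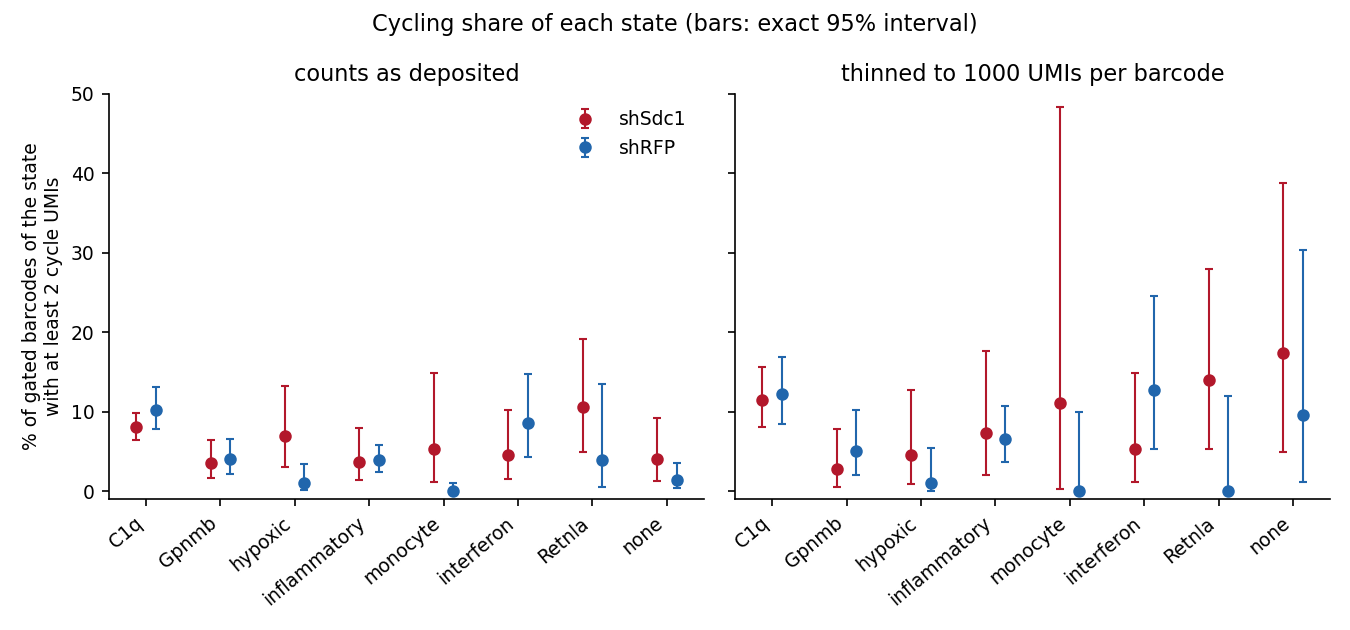
Percent of gated barcodes of each state with at least 2 cycle UMIs in shSdc1 (red) and shRFP (blue), with exact 95% intervals, for counts as deposited (left) and thinned to 1000 UMIs per barcode (right). C1q-state barcodes lie at 8.05% and 10.2% on the left, and the wide intervals on the right show how few barcodes some states keep.

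A smaller set of dividing cells carried MHC class II, the molecules that present peptides to CD4 T cells, with little C1q. At least 20 class II UMIs with fewer than 5 C1q-list UMIs were found in 12 shSdc1 members (9.30%) and 14 shRFP members (12.6%). These members had 1464 CPM of Mgl2, a lectin of macrophages and type 2 dendritic cells, in shSdc1 and 660 CPM in shRFP. Apoe was at 108 and 88.0 CPM, but it is on the C1q list, so its low level follows from how the set was defined. Ccr2, the receptor that draws monocytes into tissue, was at 542 and 528 CPM in them, against 21.6 and 102 CPM in members with the C1q list and little class II, which numbered 90 and 72. Against those members, some dendritic cell genes were higher, and the monocyte and macrophage list lower, in this set. The dendritic cell list was at 1030 CPM in shSdc1 and 264 CPM in shRFP, against 180 and 196 CPM in the members with the C1q list and little class II. Plbd1, a phospholipase-like gene of myeloid and dendritic cells, was at 542 and 396 CPM, against 28.7 and 76.7 CPM. The monocyte and macrophage list was at 5964 and 7612 CPM, against 10909 and 9581 CPM. Adgre1, the macrophage marker F4/80, had 0 and 2 UMIs, against 55 and 47. Whether these members are macrophages or dendritic cells was not tested. Both features together were found in 24 and 23 members. Only 3 and 2 members had neither feature, against 13.8% and 45.8% of non-cycling barcodes. The latter were shallower, with medians of 744 and 755 UMIs against 1518 and 1639 in members, and fall under both cutoffs more readily. In members with both features, Ccr2 was at 566 CPM in shSdc1 and 456 CPM in shRFP, and Mgl2 at 364 and 661 CPM. The dendritic cell list was at 485 and 456 CPM in them. High Ccr2 was thus not particular to the set with little C1q, nor, in shRFP, were Mgl2 and the dendritic cell list. Class II was spread unevenly over single members, with 28 of 129 in shSdc1 and 26 of 111 in shRFP at 0 UMIs and the highest at 118 and 148.

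Placing members among clusters of the non-cycling barcodes, built without cell cycle genes, put most of them in C1q-rich clusters and fewer in a class II cluster. The 2 clusters with the highest level of the C1q list together took 99 shSdc1 members, or 76.7% (68.5 to 83.7%), and 73 shRFP members, or 65.8% (56.2 to 74.5%). They held 54.5% and 22.2% of non-cycling barcodes. One of the 2 was led by Gzmc, Ccl8, Iigp1 and Apoe and the other by Jchain, Ch25h, Gdf15 and Vcam1, genes that are not on the C1q list apart from Ccl8 and Apoe. The list was at 49370 and 30537 CPM in their non-cycling barcodes, against 26142 CPM in a cluster led by Atp6v0d2 and Gpnmb. The leading genes of the second gave it no state. Another cluster, led by Retnla, Ccl17 and Mgl2 and with the highest class II level, took 23 members (17.8%) and 24 members (21.6%), against 10.8% and 9.14% of non-cycling barcodes. The 2 clusters led by Spint1, Chil3 and Hp took 0 of 129 and 0 of 111 members, which allows up to 2.33% and 2.70%, while they held 6.77% and 32.9% of non-cycling barcodes. By clusters the class II and Mgl2 cells were thus a larger part of the members than by the state lists, in which the Retnla state held 6.98% in shSdc1 and 1.80% in shRFP. A cluster led by Il1a, Inhba and Cxcl3 took 0 shSdc1 members and 9 shRFP members, while the inflammatory state by lists held 6 and 22. The clusters and the lists thus differed on the second kind in shRFP.

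Beside their cycle genes, members had higher levels of the machinery of division in both libraries. Of 4435 genes with at least 50 UMIs in members and non-cycling barcodes together in each library, 270 (6.09%) were at least 1.5-fold higher in members than in non-cycling barcodes in both libraries, and 344 (7.76%) at least 1.5-fold lower in both. Within single libraries, 15% and 17.9% of measured genes were higher in shSdc1 and shRFP, and 17.7% and 20.7% lower. With barcodes of at least 1000 UMIs only, the counts in both libraries were 137 higher and 162 lower. TMM scaling gave 148 higher and 548 lower, and DESeq2 scaling 162 and 475. Since members were selected within this contrast, its values are descriptions and nothing is read from their counts. Of the mitosis list, 10 of 11 measured genes were higher in both. Cdk1, the kinase that starts mitosis, was at 220 CPM in shSdc1 members and 22.1 CPM in non-cycling barcodes, and at 223 against 12.8 CPM in shRFP. Ube2c, which marks cyclin B for destruction, was at 597 against 25.4 CPM in shSdc1 and 627 against 19.4 CPM in shRFP. The non-cycling barcodes were thus low in mitosis genes that had not been used to choose them. Pttg1, the securin that guards sister chromatids, was the 1 exception, at 2.16-fold in shSdc1 and 0.592-fold in shRFP, where it had 5 member UMIs.

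Of the DNA replication list, 7 of 11 measured genes were higher in members of both libraries, against 6.09% of all measured genes. Tyms, the thymidylate synthase, was 9.51-fold higher in shSdc1 members (5.61 to 16.3) and 7.81-fold higher in shRFP members (4.40 to 13.7). Tk1, the thymidine kinase of S phase, was 7.33-fold and 10.9-fold higher. All 14 measured genes of the chromatin and tubulin list were higher in both. Stmn1, which regulates microtubules, was 6.51-fold and 7.46-fold higher, and the histone gene H2az1 2.92-fold and 2.97-fold. Outside the cell cycle lists, the 10 genes highest in both libraries by the rule for naming were Pclaf, H2az2, Selenoh, Nucks1, Lsm2, Rad21, Sae1, Tmpo, Exosc8 and Rangap1. Pclaf, the PCNA clamp associated factor (chromosome 9, 65890237 to 65903266, plus strand), was at 415 CPM in shSdc1 members against 20.8 CPM in non-cycling barcodes, and at 335 against 14.3 CPM in shRFP. Rad21, a cohesin subunit, was 4.46-fold and 3.55-fold higher, and Nucks1, a chromatin protein, 3.15-fold and 3.24-fold. Tmpo, a protein of the nuclear lamina, was 4.19-fold and 2.90-fold higher.

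**Figure D3:**
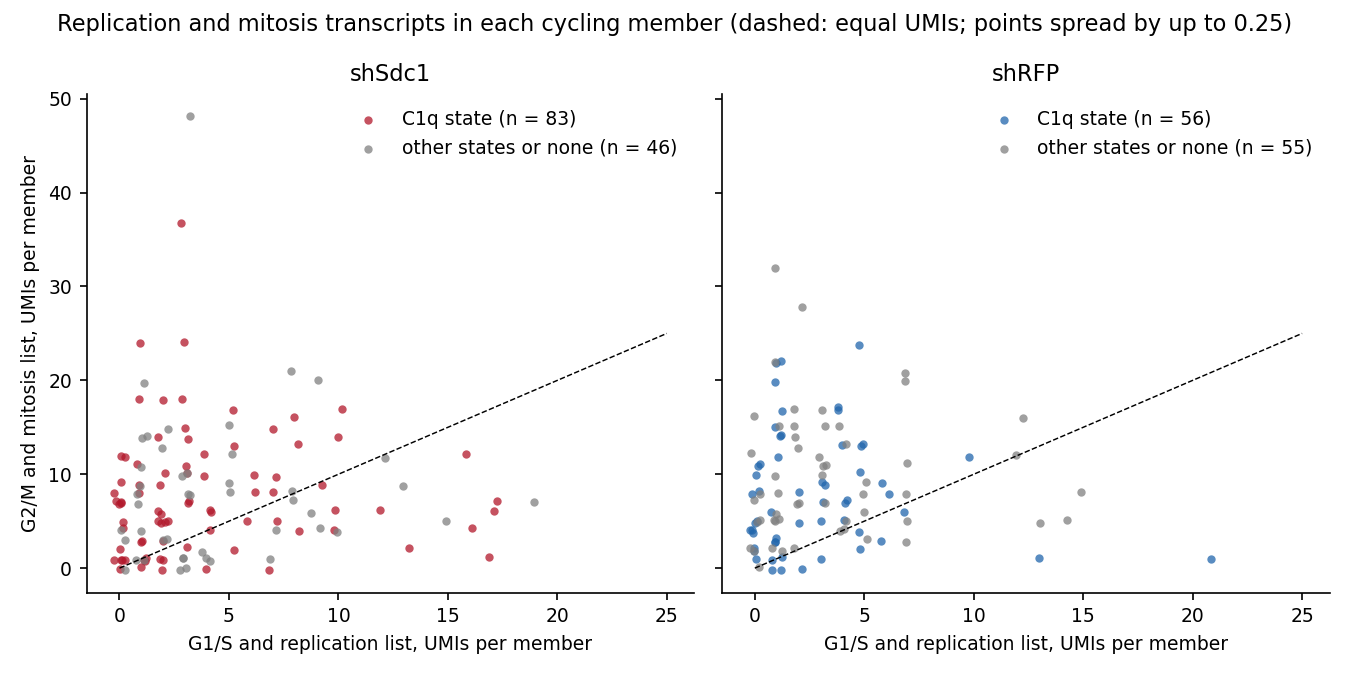
UMIs of the G1/S and replication list (x axis) against UMIs of the G2/M and mitosis list (y axis) in each cycling member of shSdc1 (left) and shRFP (right), colored where the member is in the C1q state. Most points lie above the dashed line of equal UMIs, with 82 of 129 shSdc1 members and 88 of 111 shRFP members above it. The members were chosen in part by the mitotic genes Birc5, Ccnb2 and Tpx2.

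The promoters of the selection gene Ccnb2, the mitosis gene Cdk1 and the replication gene Mcm5 are shown because both division lists were higher in members. They run 250 bases before to 50 after the gene's start and come from RefSeq on GRCm38.p6. Capitals mark the cell cycle homology region TTTGAA and the CCAAT box in Ccnb2 (chr9:70421505-70421804, minus strand) and Cdk1 (chr10:69352863-69353162, minus strand). In Mcm5 (chr8:75109259-75109558, plus strand), part of the replicative helicase, they mark the CCAAT box and an E2F match. E2F matches were searched as TTTCCCGC and TTTGGCGC, and all motifs on both strands. No marked match overlaps another.
Ccnb2: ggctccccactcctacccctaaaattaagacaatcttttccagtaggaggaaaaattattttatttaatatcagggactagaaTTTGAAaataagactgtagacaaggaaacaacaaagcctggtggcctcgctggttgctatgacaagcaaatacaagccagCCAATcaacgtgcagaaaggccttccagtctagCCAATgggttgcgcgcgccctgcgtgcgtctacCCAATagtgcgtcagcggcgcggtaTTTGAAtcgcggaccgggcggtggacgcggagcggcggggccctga
Cdk1: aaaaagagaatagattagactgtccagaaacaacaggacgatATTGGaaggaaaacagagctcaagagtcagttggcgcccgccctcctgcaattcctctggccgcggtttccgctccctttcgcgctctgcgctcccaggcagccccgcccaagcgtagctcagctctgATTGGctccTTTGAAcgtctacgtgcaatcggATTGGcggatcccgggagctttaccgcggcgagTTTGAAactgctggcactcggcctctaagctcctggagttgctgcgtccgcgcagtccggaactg
Mcm5: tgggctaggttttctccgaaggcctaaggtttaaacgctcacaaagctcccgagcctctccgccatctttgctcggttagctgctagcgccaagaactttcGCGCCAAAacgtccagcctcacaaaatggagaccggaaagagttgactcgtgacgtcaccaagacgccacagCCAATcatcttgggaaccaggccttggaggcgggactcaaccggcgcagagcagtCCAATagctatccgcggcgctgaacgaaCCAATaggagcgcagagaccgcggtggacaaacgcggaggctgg
TTTGAA was present in 24 of the 34 mitosis list genes with a promoter in the table (70.6%) and in 4 of 28 replication list genes (14.3%), against 20.2% of all 27025 genes with a promoter. An E2F match was present in 1 of 34 mitosis genes (2.94%) and 10 of 28 replication genes (35.7%), against 1.80% of all. The CCAAT box was present in 73.5% of mitosis genes and 60.7% of replication genes, against 41.1% of all. These are matches of letters, and no binding was measured.

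Most state programs other than C1q were lower in dividing cells of both libraries. Of the monocyte list, 5 of 6 measured genes were at least 1.5-fold lower in both, with median log2 ratios of -2.55 in shSdc1 and -3.06 in shRFP when genes at 0 UMIs are set to the bound of 3 counts, against medians of 0.01 and 0.03 over all measured genes. Ly6c2, the classical monocyte surface marker, had 4 UMIs in shSdc1 members (19.1 CPM) against 155 CPM in non-cycling barcodes, and 2 UMIs in shRFP members (10.6 CPM) against 196 CPM. Plac8 was at 66.9 against 281 CPM in shSdc1 and at 5.31 against 883 CPM in shRFP, where 1 UMI was left in members. Ccr2 was the measured gene of the list that did not pass in both, at 0.889-fold in shSdc1 and 0.651-fold in shRFP. Of the inflammatory list 7 of 9 were lower in both, of the interferon list 6 of 7, of the hypoxic list 7 of 10 and of the Gpnmb list 5 of 8. None of the measured genes of these 5 lists was higher in both. Over all measured genes, 7.76% were lower in both and 6.09% higher. Il1b, the interleukin-1 beta gene, was 0.227-fold in shSdc1 and 0.221-fold in shRFP. Vegfa, the vascular growth factor of hypoxia, had 2 UMIs in shSdc1 members and 5 in shRFP members, at 0.0592-fold (0.00713 to 0.216) and 0.136-fold (0.0438 to 0.319). Arg1, the arginase of suppressive macrophages, was 0.191-fold and 0.232-fold. Isg15, an interferon-induced modifier, was 0.345-fold and 0.440-fold.

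The gene rule for the largest drops named Thbs1, Il1b, Ly6c2, Vegfa, Ccl24, Arg1, Cxcl3, F10, Ptgs2 and Ms4a4c. Thbs1, the thrombospondin-1 gene (chromosome 2, 118111876 to 118127133, plus strand), was at 71.6 CPM in shSdc1 members against 781 CPM in non-cycling barcodes, and at 74.4 against 2123 CPM in shRFP. Ccl24, an eosinophil-attracting chemokine, had 0 UMIs in members of both libraries, while non-cycling barcodes had 82 and 183. F10, coagulation factor X, was at 14.3 against 121 CPM in shSdc1 and 31.9 against 346 CPM in shRFP. Several of these genes belong to the monocyte, hypoxic or inflammatory lists, so the named genes and the lists describe overlapping transcripts.

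C1q genes did not differ in one direction. C1qa, C1qb and C1qc, the chains of the first complement component (chromosome 4 of GRCm38, minus strand, 136880129 to 136898803 from C1qb to C1qa), were at 4537, 4814 and 2913 CPM in shSdc1 members, against 4118, 4700 and 2948 CPM in non-cycling barcodes. In shRFP they were at 3783, 4298 and 2635 CPM in members, against 1835, 2405 and 1383 CPM. Dividing cells of the libraries were thus closer to each other in these genes than non-cycling cells were. Summed over the list, members were at 22617 CPM in shSdc1 and 18713 CPM in shRFP, a ratio of 1.21 (1.16 to 1.26), while non-cycling barcodes were at 31126 and 13085 CPM, a ratio of 2.38 (2.34 to 2.42). The members' list level was 0.727 times that of non-cycling barcodes in shSdc1 (0.705 to 0.749) and 1.43 times in shRFP (1.38 to 1.48). Of the 12 genes, 3 were at least 1.5-fold lower in shSdc1 members, near the 17.7% of all measured genes, and 0 were higher. In shRFP members 7 of 12 were higher, against 17.9% of all measured genes, and 0 lower. Apoe, the lipid carrier apolipoprotein E, and Selenop, the selenium carrier, were 0.458-fold and 0.430-fold in shSdc1, against 0.981-fold and 1.19-fold in shRFP.

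**Figure D4:**
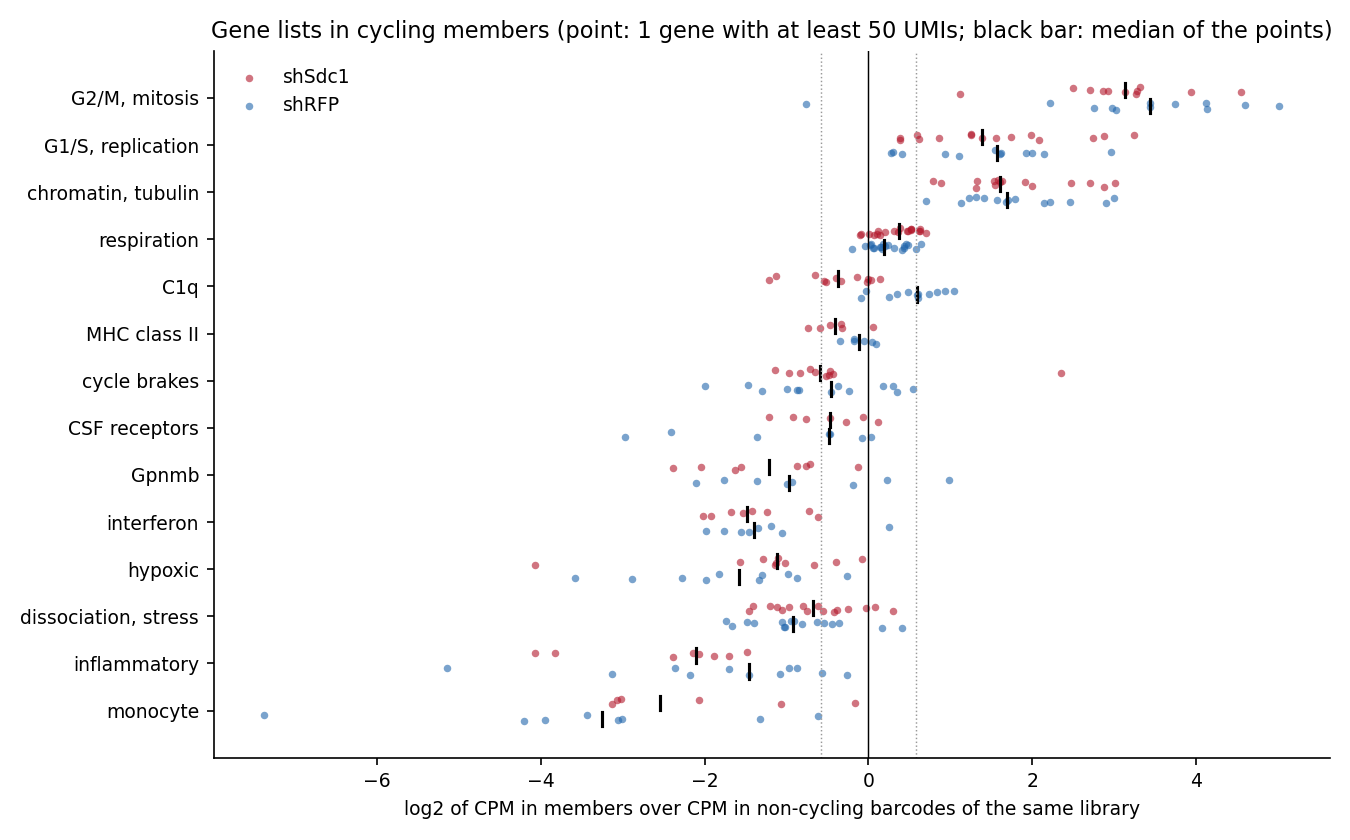
Log2 ratio of CPM in members over non-cycling barcodes of the same library (x axis) for the genes of each list (rows) with at least 50 UMIs, in shSdc1 (red, upper) and shRFP (blue, lower). Genes with no UMI in members are not drawn, black bars are medians of the points, and dotted lines mark 1.5-fold. Mitosis medians lie at 3.13 and 3.44, and C1q medians at -0.37 in shSdc1 and 0.60 in shRFP.

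Genes that hold cells out of cycle and receptors for growth factors were in part lower. Of the list of cycle brakes, 4 of 10 measured genes were at least 1.5-fold lower in both libraries and 0 higher, against 7.76% and 6.09% of all measured genes. Cdkn1a, the inhibitor p21, was at 205 CPM in shSdc1 members against 455 CPM in non-cycling barcodes, and at 345 against 624 CPM in shRFP. Btg1, an antiproliferative factor, was 0.510-fold and 0.360-fold. Maf, a transcription factor of mature macrophages, was 0.561-fold and 1.13-fold. Cdkn2d and Cdkn2c, inhibitors of the kinases CDK4 and CDK6, had ratios above 1. Cdkn2d was 5.09-fold (2.92 to 8.76) and 1.46-fold (0.747 to 2.61), and Cdkn2c, which had too few UMIs to enter the count, was 3.70-fold (1.79 to 7.30) and 13.5-fold (5.48 to 34.5). Of the colony-stimulating factor list 3 of 7 were lower in both and 0 higher. Csf1r, the receptor for CSF-1, was 0.721-fold and 0.723-fold, which does not reach 1.5-fold, and was found in 38.0% and 36.0% of members. Csf2rb, the shared chain of the GM-CSF receptor, was 0.587-fold and 0.388-fold. Among genes that drive G1, 1 of 5 was higher in both, against 6.09% of all measured genes. This was Cdk4, at 1.76-fold and 2.19-fold, and Ccnd1, cyclin D1, was 1.38-fold and 2.004-fold. Csf2, Il34 and, in shRFP members, Csf1 had no UMI in members.

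Set against cycling T cells of the same tumors, the members had lower levels of every division list in CPM. Both were selected at 2 cycle UMIs, but the T cell barcodes were shallower, with medians of 1232 and 1129 UMIs against 1518 and 1639. The same cutoff at lower depth selects barcodes with higher cycle gene CPM, and the comparison was not made at matched depth. The mitosis list was at 4871 CPM in shSdc1 members and 8243 CPM in cycle-positive T cell barcodes, a ratio of 0.591 (0.550 to 0.635), and at 5207 against 8872 CPM in shRFP, a ratio of 0.587 (0.537 to 0.641). The replication list ratio was 0.531 and 0.466. The D-type cyclins Ccnd1 and Ccnd2 stood in opposite order in both libraries, and the ratios of Ccnd3, 1.13 (0.628 to 1.99) and 1.14 (0.481 to 2.90), had intervals that held 1. Ccnd1 was at 234 CPM in shSdc1 members and 11.0 CPM in T cells, and at 244 against 26.4 CPM in shRFP. Ccnd2, cyclin D2, was at 23.9 against 225 CPM in shSdc1 and 53.1 against 141 CPM in shRFP.

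Between the libraries, inflammatory genes were lower in dividing cells of shSdc1. Of 1300 genes with at least 50 UMIs in members of both libraries together, 86 (6.62%) were at least 1.5-fold higher in shSdc1 members and 101 (7.77%) lower. All 4 measured inflammatory genes were lower, with a median log2 ratio of -2.13, against 0.00 over all measured genes. Cxcl2, a neutrophil-attracting chemokine, was at 649 CPM in shSdc1 members and 2928 CPM in shRFP members, a ratio of 0.222 (0.183 to 0.268). Ccl3 was at 215 against 972 CPM and Tnf at 86.0 against 367 CPM. Il1b was at 177 against 569 CPM, a ratio of 0.311 (0.208 to 0.456). The same genes were lower in shSdc1 among non-cycling barcodes, at 0.440-fold for Cxcl2, 0.518-fold for Ccl3, 0.582-fold for Tnf and 0.303-fold for Il1b. Other genes named among the lowest were Ccl4, Phlda1, Ccrl2, Spp1, Fn1 and Rgs1. Spp1, the osteopontin gene, was at 568 against 1514 CPM, and Fn1, fibronectin, at 181 against 526 CPM. The ratio of Fn1, 0.345 as deposited, was 0.908 when thinned to 1000 UMIs and 0.140 with states weighted alike, and the thinned value ends its call. Leaving out the barcode with most UMIs of the gene in each library kept the ratio at 0.196 for Cxcl2, 0.174 for Tnf and 0.430 for Spp1.

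A dissociation and stress list moved with this difference. Of 14 measured genes 8 were at least 1.5-fold lower in shSdc1 members, against 7.77% of all measured genes. Junb was at 473 against 1052 CPM and Fosb at 110 against 324 CPM. Summed, the list was at 5272 CPM in shSdc1 members and 8299 CPM in shRFP members, and at 8737 and 15014 CPM in non-cycling barcodes. Its part in the inflammatory difference was not tested. The states of the members also differed, with 6 inflammatory-state members in shSdc1 and 22 in shRFP. Only the C1q state, with 83 and 56 members, and the Gpnmb state, with 10 and 14, were large enough in both libraries to be weighted alike. The median of the inflammatory list was then -1.03, its value nearest 0 over 13 other settings. The ratio of Cxcl2 was then 0.376, that of Ccl3 0.413, that of Il1b 0.583 and that of Tnf 0.646, against 0.222, 0.221, 0.311 and 0.234 over all members. Ccl4 and Ccrl2 no longer reached 1.5-fold, at 0.733 and 0.686 against 0.293 and 0.225, and Phlda1 was at 0.0644 against 0.191.

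The genes named as higher in shSdc1 members were Retnla, Ccl8, Cxcl9, H2ac8, Serpinb6a, Eif3g, Lars2, Prdx2, Ckb and Itgb1. Ccl8, a monocyte-attracting chemokine, was at 874 against 308 CPM, a ratio of 2.84 (2.10 to 3.88), in 46 and 18 members. Cxcl9, an interferon gamma target that attracts T cells, was at 411 against 149 CPM, a ratio of 2.76 (1.78 to 4.39), in 25 and 9 members. Retnla, a product of alternatively activated macrophages, had 65 UMIs in 7 shSdc1 members and 3 UMIs in 1 shRFP member, a ratio of 19.5 (6.38 to 96.9). Its difference rested on few cells, and with states weighted alike its ratio was 0.232. H2ac8, a replication-dependent histone gene whose reads can be split with near-identical copies, was at 287 against 106 CPM. Thinned to 1000 UMIs, Lars2 at 0.989, Prdx2 at 1.43, Ckb at 1.40 and Itgb1 at 1.23 did not reach 1.5-fold. Of the C1q list only Ccl8 passed 1.5-fold of 11 measured genes, against 6.62% of all measured genes higher and 7.77% lower. MHC class II had 0 of 6 past 1.5-fold in either direction, with a summed ratio of 0.896 (0.846 to 0.949).

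**Figure D5:**
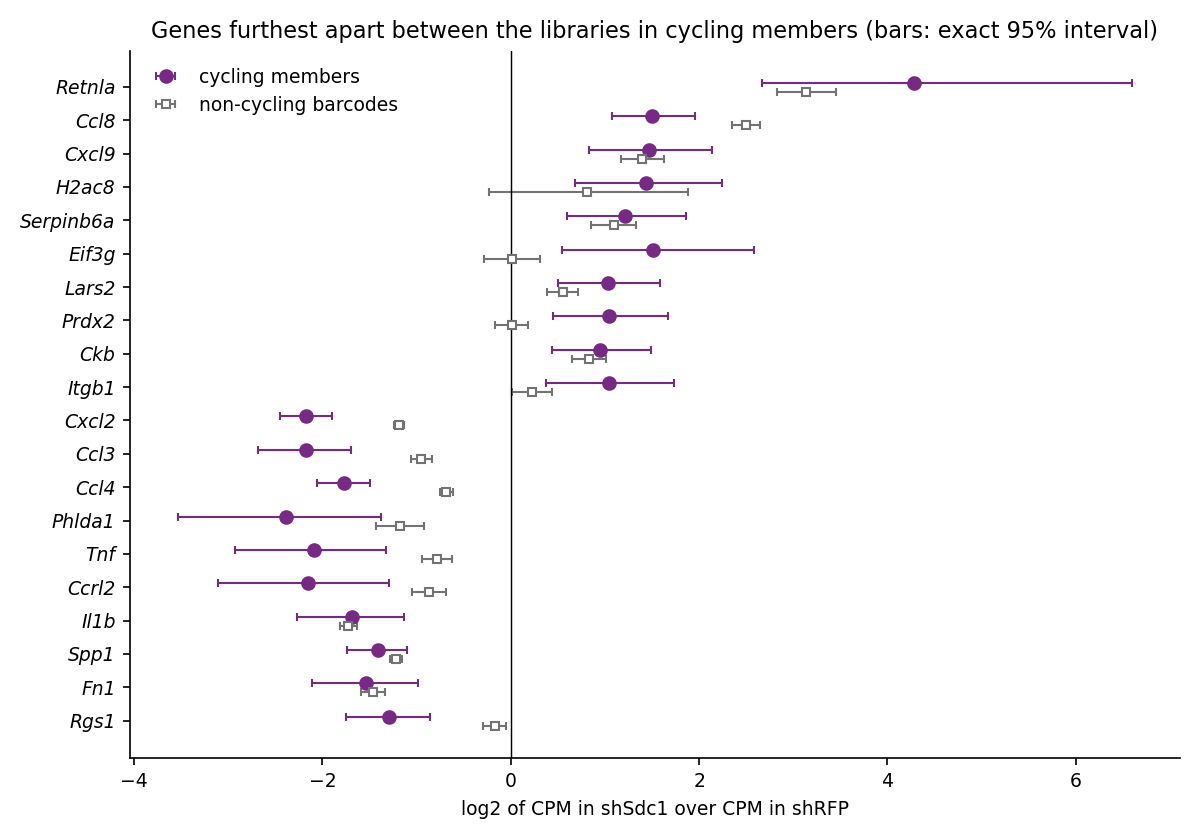
Log2 ratio of CPM in shSdc1 over shRFP (x axis) for the named genes in cycling members (filled circles) and non-cycling barcodes (open squares), with exact 95% intervals. The 10 lower genes lie below 0 in both kinds of barcode, and Eif3g and Prdx2 lie above 0 in members with non-cycling values near 0.

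The balance of replication to mitosis transcripts also differed between the libraries. The replication list was at 2641 CPM in shSdc1 members and 1892 CPM in shRFP members, a ratio of 1.40 (1.22 to 1.60). Only 4 of its 33 genes were measured, and 3 of them were at least 1.5-fold higher, against 6.62% of all measured genes. Of these 3, Rrm2 (0.932 to 3.19) and Tk1 (0.903 to 2.85) had intervals that held 1. The list's median log2 ratio was 0.66, and lay between 0.21 and 0.75 over 10 other settings. Pcna, the sliding clamp of DNA polymerase, was at 368 against 234 CPM. The mitosis list was at 4871 against 5207 CPM, a ratio of 0.936 (0.856 to 1.02). Of its 15 measured genes 3 were lower and 0 higher, against 7.77% and 6.62% of all measured genes. More replication than mitosis UMIs were found in 36 of 129 shSdc1 members and 16 of 111 shRFP members. The members were chosen in part by the mitotic genes Birc5, Ccnb2 and Tpx2, so this balance describes the selected cells only. Replication genes were also somewhat higher in non-cycling shSdc1 barcodes, at 883 against 718 CPM, a ratio of 1.23 (1.14 to 1.33).

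Within the C1q state alone, dividing cells had lower levels of the inflammatory, stress and MHC class II lists than non-cycling ones. The inflammatory, hypoxic and interferon lists also take part in the state assignment, which removes barcodes where another list has the largest quotient. A deeper barcode reaches the minimum UMIs of another list more readily. Over all states, members had medians of 1518 UMIs in shSdc1 and 1639 in shRFP, against 744 and 755 in non-cycling barcodes. The part of assignment and depth in these differences was not tested. The 83 members were set against 888 non-cycling barcodes in shSdc1, and the 56 members against 436 in shRFP. The inflammatory list was 0.365-fold in shSdc1 (0.279 to 0.470) and 0.698-fold in shRFP (0.581 to 0.832), and the stress list 0.616-fold and 0.631-fold. MHC class II was at 5706 CPM in members against 14795 CPM in shSdc1, a ratio of 0.386 (0.357 to 0.416), and at 6448 against 10449 CPM in shRFP, a ratio of 0.617 (0.564 to 0.674). Over all members, 0 of 6 class II genes were past 1.5-fold in both libraries. The hypoxic list in shSdc1, at 0.868-fold (0.678 to 1.10), and the interferon list in shRFP, at 0.908-fold (0.618 to 1.30), had intervals that held 1. Respiratory chain genes were 1.27-fold (1.18 to 1.35) and 1.16-fold (1.07 to 1.26). None of the 20 was past 1.5-fold in both libraries over all members, against 6.09% of all measured genes higher and 7.76% lower. Glycolysis genes were 1.10-fold and 0.899-fold.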

How the data were processed

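The authors deposited raw UMI counts per gene and barcode for 2 libraries, with Cell Ranger 6.1.1 named in the file headers and mm10 in the submitters' processing notes. No annotation release is named there. The files hold 31253 features and 4370725 UMIs for shSdc1 and 4255928 for shRFP. The members and gene lists were chosen with earlier results of these data known. Doublets were kept, since Scrublet's own threshold marked 1 barcode per library. UMIs were summed over barcodes and given as CPM. Ratios have exact conditional binomial intervals, shares have Clopper-Pearson intervals, both at 95%, and a share at 0 is bounded by 3 counts. Intervals cover counting error only. A gene was called at 1.5-fold with at least 50 UMIs in the groups compared, without a p-value. Named genes were the 10 highest and 10 lowest by the interval bound nearest to 1, leaving out mitochondrial, ribosomal, immunoglobulin and T cell receptor genes, sex-linked markers, unnamed models and the genes of the selection, and, for the genes higher in members than in non-cycling barcodes, the cell cycle lists. Clusters came from Leiden at resolution 1, with members placed by their 15 nearest non-cycling barcodes. Gene positions are from GENCODE M21 on GRCm38. Alternatives included edgeR 4.0.16 TMM and DESeq2 1.42.0 size factors, used for scaling only. Python 3.11.15 with SciPy 1.17.1 and Scanpy 1.11.5 was used, and the ratios and calls were tested on simulated data.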

Additional observations from a re-analysis of the deposited data

Results flagged for a closer look

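These results went opposite ways in the 2 libraries, members over non-cycling barcodes, and the difference was not tested, with 1 library per group. The summed C1q list was 0.727-fold in shSdc1 and 1.43-fold in shRFP. In shSdc1 genes such as Apoe and Selenop were lower, while C1qa, C1qb and C1qc were near their level in non-cycling barcodes. Pttg1, the securin gene, was 2.16-fold in shSdc1 and 0.592-fold in shRFP, on 17 and 5 member UMIs. Ccnd2, cyclin D2, was 0.524-fold and 1.60-fold, on 5 and 10 member UMIs. Syngr1, of the Gpnmb list, was 0.608-fold and 1.98-fold, on 15 member UMIs each. Irgm1, an interferon-inducible GTPase, was 0.576-fold and 1.80-fold, on 8 and 14 member UMIs.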

How the results depend on the processing

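The share of members among kept barcodes had a ratio between 0.917 and 1.37 over 8 other settings, and among Lyz2-gated barcodes between 1.21 and 1.55. Removing the highest doublet scores, barcode sequences found in both libraries, or barcodes with UMIs of other lineages moved none of 12 main values by over 1.5 times or out of its interval. The C1q state held 42.6% of shSdc1 members and 29.7% of shRFP members when only the first of the 2 C1q-rich clusters was counted. The monocyte state held 0 shSdc1 members with counts thinned to 1000 UMIs and by clusters. The percent of C1q-state barcodes that were members in shSdc1 and shRFP was 4.27 and 6.03 with at least 3 cycle UMIs, 14.7 and 14.4 with at least 500 genes, and 18.5 and 17.7 with at least 1000 UMIs, and was 11.3 in shSdc1 when thinned and 14.9 in shRFP by clusters. Genes higher and lower in shSdc1 than in shRFP members numbered 55 and 65 with 3 cycle UMIs, 21 and 40 thinned, 149 and 192 with states weighted alike, 401 and 412 at 20 UMIs per gene, and 4 and 18 at 200. Genes higher and lower in members of both libraries numbered 175 and 210 with 500 genes, 137 and 162 with 1000 UMIs, 81 and 134 thinned, 563 and 594 at 20 UMIs per gene, and 53 and 110 at 200. TMM gave 148 and 548, and DESeq2 scaling 162 higher. These scalings moved the median log2 over all genes in members over non-cycling barcodes to -0.14 and -0.10 in shSdc1 and to -0.20 and -0.14 in shRFP. The interferon gamma list median in shSdc1 members over non-cycling barcodes, below 0, turned to 0.14 with 500 genes, 0.19 with 1000 UMIs, 0.71 thinned and 0.13 at 200 UMIs per gene. In shRFP the replication list median was 0.00 and the G1 driver median -0.027 when thinned. With states weighted alike 9 of 20 named genes moved out of their interval and the ratio of Retnla was 0.232, and Ccl4 at 0.733 and Ccrl2 at 0.686 lost their calls. Thinned, the ratio of Lars2 was 0.989 and that of Fn1 0.908. The causes were not tested. Of 697 settings of single named genes 651 stayed within their interval, and of 694 of list medians 667. No paired analysis was possible because each group is 1 library. Depth limits the states, since 5 UMIs of a list are reached more readily in deep barcodes.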
